A study of Mus musculus with 10 samples.

Results

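Mitochondrial ribosomal proteins were taken as every row of the hippocampal count table whose symbol begins with Mrpl or Mrps followed by a digit. The rule found 78 genes of 20156 gene rows, 49 with an Mrpl symbol (large subunit) and 29 with an Mrps symbol (small subunit). All 78 passed the filter on low counts, and the lowest count of a member in any library was 76. Hippocampal RNA was sequenced from 10 mice aged 6 months, each giving 1 library: 5 were wild type (WT) and 5 had the genotype that the labels call TfamAKO. The series title speaks of astrocytic mitochondria, but the labels state neither which part of Tfam was deleted nor which cells and promoter the deletion was driven by, and they give no sex, litter or batch. No treatment is named for either group. The series' design text counts 5 mice in each group, so the p-values below measure the spread between mice.

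Mitochondrial ribosomes translate the few mRNAs that mitochondrial DNA (mtDNA) encodes, all of which specify subunits of the respiratory chain or of the ATP synthase. Their rRNAs are transcribed from mtDNA, whereas all of their proteins are encoded in the nucleus, translated in the cytosol and imported. Some of these proteins have a counterpart in bacterial ribosomes, and others are found only in mitochondria. Tfam packages mtDNA and is needed for its transcription, rRNAs included. The comparison of TfamAKO with WT asks what the nuclear mRNAs for the protein part did.

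Tfam itself fell in the TfamAKO hippocampus, by 0.40 ± 0.12 (SE) on the log2 scale with an adjusted p of 0.0204. Its level was 31.7, 33.0, 20.6, 32.5 and 30.4 CPM (counts scaled to library size) in WT 1 to 5, and 23.6, 22.7, 19.6, 23.1 and 23.4 CPM in TfamAKO 1 to 5. The library WT 3 lay within the range of the TfamAKO libraries. The call of Tfam was lost on the deposited normalized values (-0.28, adjusted p 0.117), without TfamAKO 4 and 5 (-0.43, adjusted p 0.0524), and without WT 2, WT 4 or TfamAKO 3 alone (adjusted p 0.0580, 0.0504 and 0.0554). Some libraries stood apart in ways the labels do not give. Choroid plexus markers summed to between 2837 and 5724 CPM in WT 3, 4 and 5 and to at most 166 CPM in the other 7 libraries. The Y-linked gene Kdm5d gave 22.7 and 22.4 CPM for TfamAKO 4 and 5 but less than 1 CPM for each other library. The X-linked Xist gave 0.141 and 0 CPM for TfamAKO 4 and 5 and 201 to 467 CPM for the other libraries. By these genes the groups were not balanced in sex, which the labels do not give. In the whole tissue, summed neuron markers were 18.6% lower in TfamAKO (6 of 10 markers fell and 0 rose) and summed microglia markers 96.7% higher (9 of 10 rose). Summed astrocyte markers were 17.8% higher (4 of 10 rose and 3 fell), oligodendrocyte markers 11.2% higher (3 of 8 rose) and endothelial markers 69.2% higher (5 of 6 rose). The astrocyte sums were 4778 ± 450.4 CPM in WT and 5627 ± 1018 CPM in TfamAKO (SD, n = 5). The oligodendrocyte sums were 6152 ± 1592 CPM and 6840.5 ± 906 CPM. For astrocyte and oligodendrocyte markers the groups overlapped. The part of these cell types in the member values was not tested, and in bulk RNA fewer cells of a type cannot be told apart from less RNA per cell.

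The mitoribosomal protein mRNAs changed little and in both directions. Of the 78 members, 6 rose and 15 fell in TfamAKO at an adjusted p under 0.05 (edgeR's quasi-likelihood test with Benjamini-Hochberg adjustment over 16180 genes), and 57 did not pass. That is 26.9% of the members, against 37.4% of all genes tested. The shares by direction were 7.69% higher and 19.2% lower among the members, against 20.8% higher and 16.6% lower among all genes tested. Without a test, 31 members had a positive and 47 a negative log2 fold change. Member changes ran from -0.47 to 0.63 on the log2 scale with a median of -0.04, beside a median of -0.02 over all genes. The median size of a change, regardless of sign, was 0.13 for the members and 0.25 for all genes, and 1 member against 25.8% of all genes changed by more than 0.5. Among the 7927 tested genes whose mean CPM lay within the members' range, that median size was 0.24, and 39.4% were called.

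Precision was not lower for the members. The median SE of a member's log2 fold change was 0.08, against 0.12 over all genes. Their median coefficient of variation between libraries was 6.86% in WT and 8.28% in TfamAKO, beside 10.1% and 12.4% for the 7927 genes of the same level. The smallest change among called members was 0.18 and the largest among uncalled members was 0.29. Just inside the threshold lay Mrpl35 (adjusted p 0.0455, named after its values were seen) and just outside it Mrpl3 (-0.16, adjusted p 0.0535) and Mrpl36 (-0.29, adjusted p 0.0584).

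**Figure D1:**
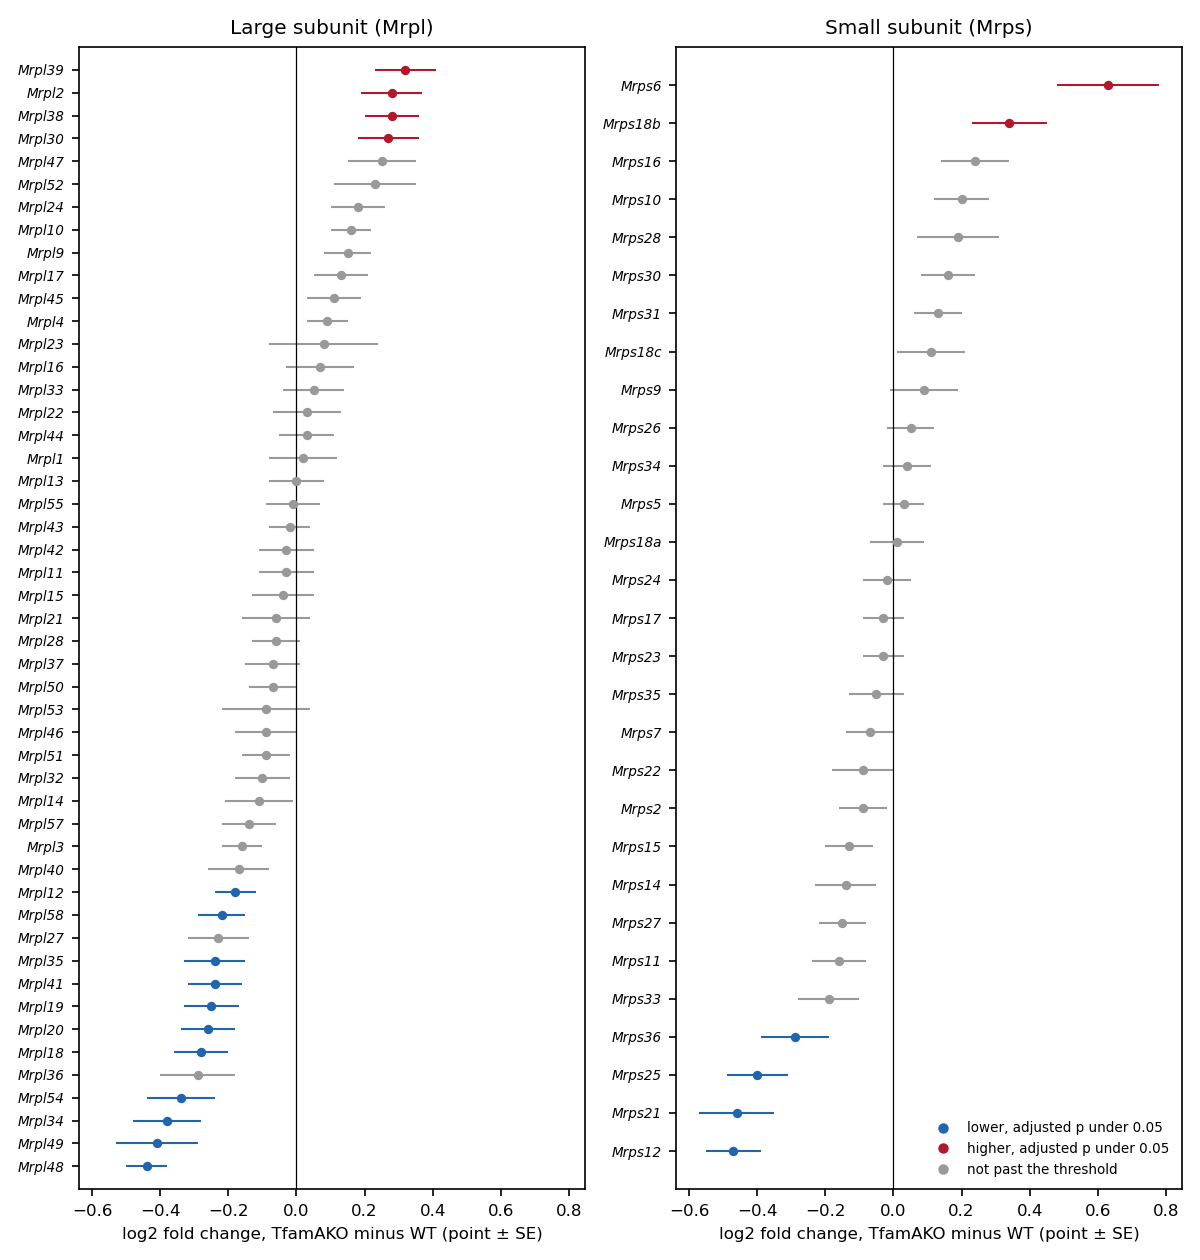
Log2 fold change (TfamAKO minus WT, x axis) of each of the 49 Mrpl genes (left) and 29 Mrps genes (right), as point ± SE from 5 libraries a group. Most points lie within 0.3 of 0, with 11 Mrpl and 4 Mrps genes past the threshold on the lower side (blue), 4 and 2 on the higher side (red), and Mrps6 alone above 0.5.

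Among the called genes of each subunit more fell than rose, by few genes in the small subunit. Among the Mrpl genes 4 rose (8.16%) and 11 fell (22.4%), 30.6% called in all, with a median log2 fold change of -0.06. Among the Mrps genes 2 rose (6.90%) and 4 fell (13.8%), 20.7% called in all, with a median of -0.03. Of all genes tested 20.8% rose and 16.6% fell. The 13.8% of Mrps genes that fell lay near the share over all genes and rests on 4 genes. Summed over the 49 Mrpl genes, the level was 1264 ± 40.7 CPM (SD, n = 5) in WT and 1226 ± 46.5 CPM in TfamAKO, 3.04% lower. The Mrps sum was 747 ± 26.1 CPM in WT and 735 ± 27.2 CPM in TfamAKO, 1.63% lower. Both differences were smaller than the SD of either group. Divided within each library, the Mrpl sum was 1.69, 1.68, 1.69, 1.67 and 1.73 times the Mrps sum in WT 1 to 5, and 1.70, 1.68, 1.70, 1.62 and 1.65 times in TfamAKO 1 to 5. The groups overlapped in this ratio. Whether the subunits differ was not tested across members, since genes are not replicates.

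Symbols do not match structure for 3 members. Mrps18a and Mrps30 belong to the large subunit of the mammalian ribosome, and Mrps36 is now known as a subunit of the alpha-ketoglutarate dehydrogenase complex (Kgd4). With these moved, 4 of 51 large subunit genes rose (7.84%) and 11 fell (21.6%). Of 26 small subunit genes 2 rose (7.69%) and 3 fell (11.5%), beside 20.8% and 16.6% of all genes. Mrps36 was the fourth Mrps gene that fell, by 0.29 ± 0.10 on the log2 scale (adjusted p 0.0390). Its libraries held 15.5, 18.4, 13.6, 14.8 and 15.4 CPM in WT and 12.1, 14.4, 12, 13.3 and 11.8 CPM in TfamAKO, which overlap. Mrps18a (0.01 ± 0.08, adjusted p 0.931, negative under upper-quartile scaling) and Mrps30 (0.16 ± 0.08, adjusted p 0.151) did not pass. Grouped by origin, a grouping made after the values were seen, 3 of 46 members with a bacterial counterpart rose (6.52%) and 8 fell (17.4%). Of 31 named as mitochondria-specific 3 rose (9.68%) and 6 fell (19.4%), beside the same 20.8% and 16.6% of all genes. The medians of these groups, in that order, were -0.02 and -0.07. The grouping follows the structural names of the proteins, so Mrps18a and Mrps18b, which are related to bacterial S18 but carry names of mitochondria-specific proteins, were counted with the latter, and Mrps18c with the former.

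The sequence just upstream of 4 called members is given before their values. Mrpl49 and Mrps12 fell and share theirs with a gene that starts on the other strand and was not called lower (Fau and Sars2), Mrps21 fell and holds a match to the letters of NRF1, and Mrps6 rose most. Each sequence comes from RefSeq on GRCm38.p6, is written 5' to 3' along the member's strand, and ends at the base before its start. Capitals mark the NRF1 letters or the CCAAT box, and for Mrpl49 and Mrps12 the stretch stops at the start of that gene.
Mrpl49, chr19:6057756-6057946, minus strand: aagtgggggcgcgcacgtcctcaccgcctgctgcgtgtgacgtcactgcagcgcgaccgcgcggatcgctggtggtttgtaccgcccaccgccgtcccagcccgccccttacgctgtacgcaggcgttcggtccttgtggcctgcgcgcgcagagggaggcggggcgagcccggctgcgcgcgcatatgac
Mrps12, chr7:28741822-28741967, minus strand: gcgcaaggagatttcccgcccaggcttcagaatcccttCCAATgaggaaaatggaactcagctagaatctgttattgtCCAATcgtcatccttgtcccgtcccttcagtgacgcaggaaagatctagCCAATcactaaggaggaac
Mrps21, chr3:95871515-95871764, minus strand: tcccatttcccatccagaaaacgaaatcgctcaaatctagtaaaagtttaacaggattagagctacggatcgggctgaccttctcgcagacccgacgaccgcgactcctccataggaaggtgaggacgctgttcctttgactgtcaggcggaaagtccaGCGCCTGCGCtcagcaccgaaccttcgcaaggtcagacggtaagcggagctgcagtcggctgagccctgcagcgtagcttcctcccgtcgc
Mrps6, chr16:92058086-92058335, plus strand: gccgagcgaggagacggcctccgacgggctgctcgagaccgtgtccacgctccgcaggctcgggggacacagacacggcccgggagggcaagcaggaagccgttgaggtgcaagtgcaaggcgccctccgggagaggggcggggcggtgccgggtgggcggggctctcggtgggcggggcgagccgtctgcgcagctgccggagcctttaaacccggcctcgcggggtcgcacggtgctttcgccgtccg
These stretches differ in what they hold. That of Mrps12 has 3 CCAAT boxes within 146 bases, that of Mrps21 has 1 NRF1 match, and those of Mrpl49 and Mrps6 have none of the ETS, NRF1 or CCAAT letters.

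Mrpl48, a mitochondria-specific protein of the central protuberance of the large subunit, had the smallest p of all members. WT 1 to 5 held 62.9, 66.0, 62.6, 59.5 and 60.7 CPM of it, and TfamAKO 1 to 5 held 50.5, 46.7, 41.4, 46.5 and 44.0 CPM. Every TfamAKO library lay below every WT library. The fall was 26.5%, or 0.44 ± 0.06 on the log2 scale (adjusted p 0.000241). Other called proteins of the same protuberance gave mixed results, and its proteins that were not called are left out here. Mrpl18, the counterpart of bacterial L18, fell by 0.28 ± 0.08 (adjusted p 0.0138). Mrpl58, a peptidyl-tRNA hydrolase built into the large subunit, fell by 0.22 ± 0.07 (adjusted p 0.0239). Mrpl38 rose by 0.28 ± 0.08 (adjusted p 0.0208), from 40.8, 37.2, 39.5, 42.2 and 43.5 CPM in WT to 42.7, 51.9, 56.1, 51.2 and 44.1 CPM in TfamAKO. TfamAKO 1 lay inside the WT range of Mrpl38, and the other 4 TfamAKO libraries lay above it.

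Mrpl34, a small counterpart of bacterial L34, was at 18.6, 16.9, 16.6, 16.2 and 17.1 CPM in WT and 15.9, 12.2, 10.8, 13.5 and 13.1 CPM in TfamAKO. It fell by 0.38 ± 0.10 on the log2 scale (adjusted p 0.0124), and the groups did not overlap. The mitochondria-specific Mrpl54 was at 13.0, 13.3, 11.9, 11.7 and 12.9 CPM in WT and 10.4, 9.69, 8.74, 11.3 and 9.44 CPM in TfamAKO. It too separated the groups without overlap and fell by 0.34 ± 0.10 (adjusted p 0.0156). Among the smaller falls were those of Mrpl20, whose bacterial counterpart acts in large subunit assembly (-0.26 ± 0.08, adjusted p 0.0179), and of Mrpl19, which lies at the interface of the subunits (-0.25 ± 0.08, adjusted p 0.0230). Mrpl41, a mitochondria-specific protein, had a log2 fold change of -0.24 ± 0.08 (adjusted p 0.0366). Mrpl12 forms the stalk that recruits translation factors, and fell by 0.18 ± 0.06 (adjusted p 0.0385). Its libraries held 43.2, 42.1, 41.0, 42.7 and 39.6 CPM in WT and 38.6, 33.2, 39.4, 37.6 and 34.9 CPM in TfamAKO, with a gap of less than 1 CPM between the groups.

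On the higher side of the large subunit stood Mrpl39, a mitochondria-specific protein related to threonyl-tRNA synthetase. It was at 20.8, 20.1, 17.8, 20.3 and 21.0 CPM in WT and 23.6, 27.4, 27.1, 26.5 and 20.8 CPM in TfamAKO. The rise was 0.32 ± 0.09 on the log2 scale (adjusted p 0.0145), and TfamAKO 5 lay inside the WT range. Mrpl2, whose bacterial counterpart sits near the peptidyl transferase centre, rose by 0.28 ± 0.09 (adjusted p 0.0235). Mrpl30, the counterpart of bacterial L30, rose by 0.27 ± 0.09 (adjusted p 0.0395). Of these 4 Mrpl genes that rose, none separated the groups without overlap. Mrpl33, a small counterpart of bacterial L33, had a log2 fold change of 0.05 ± 0.09 (adjusted p 0.711).

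In the small subunit, Mrps12 had the smallest p. It is the counterpart of bacterial S12, a protein of the decoding centre. The level was 28.9, 29.6, 29.9, 30.9 and 30.3 CPM in WT 1 to 5 and 25.4, 20.4, 20.0, 19.9 and 22.4 CPM in TfamAKO 1 to 5. Every TfamAKO library was below every WT library, and the fall was 27.8%, or 0.47 ± 0.08 on the log2 scale (adjusted p 0.000750). Mrps21, the counterpart of bacterial S21, was at 24.3, 23.7, 23.8, 19.9 and 22.4 CPM in WT and 21.1, 16.0, 16.0, 16.6 and 13.5 CPM in TfamAKO, a fall of 0.46 ± 0.11 (adjusted p 0.00756). Mrps25, a mitochondria-specific protein, was at 29.3, 26.1, 29.5, 32.2 and 27.8 CPM in WT and 26.9, 21.2, 21.2, 20.9 and 19.8 CPM in TfamAKO, a fall of 0.40 ± 0.09 (adjusted p 0.00570). In both genes TfamAKO 1 lay inside the WT range and the other 4 TfamAKO libraries below it.

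Mrps6, the counterpart of bacterial S6, made the largest change of any member and was the only one that rose without overlap of the groups. It was at 18.6, 12, 23.1, 23.1 and 21.0 CPM in WT and 27.0, 29.8, 32.9, 31.0 and 31.2 CPM in TfamAKO, 1.55-fold higher (0.63 ± 0.15 on the log2 scale, adjusted p 0.00630). In the GENCODE M21 annotation Mrps6 overlaps Slc5a3, a myo-inositol transporter gene on the same strand. Slc5a3 rose with it, by 0.76 ± 0.17 (adjusted p 0.00478), from 25.3 ± 5.37 to 42.7 ± 8.25 CPM (SD, n = 5). The way the deposited counts split reads between these genes was not given in the sources used here, and the value of Mrps6 is uncertain. Mrps18b, a relative of bacterial S18 that is named as a mitochondria-specific protein, rose by 0.34 ± 0.11 (adjusted p 0.0259). Its libraries held 16.4, 16.2, 13.4, 15.7 and 14.0 CPM in WT and 15.0, 20.0, 21.5, 20.4 and 18.7 CPM in TfamAKO, with TfamAKO 1 again inside the WT range. Mrps18c, the direct counterpart of bacterial S18, had a log2 fold change of 0.11 ± 0.10 (adjusted p 0.392).

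**Figure D2:**
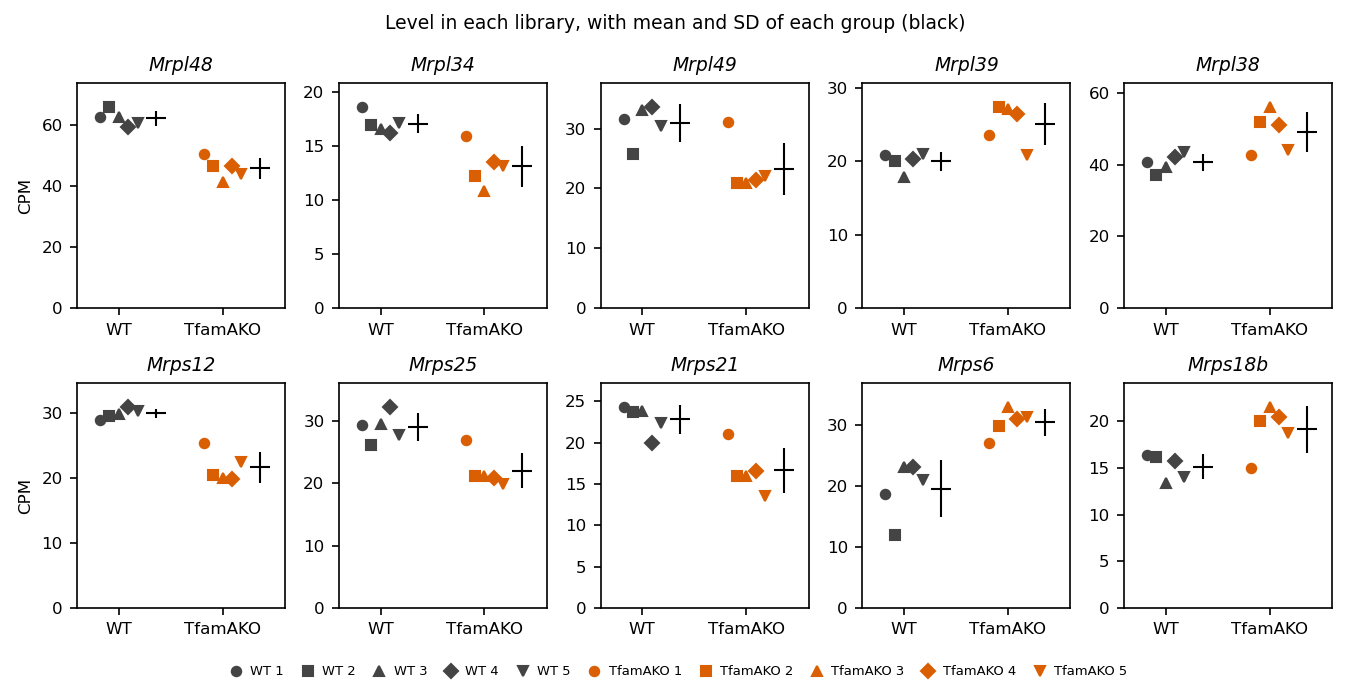
Level in CPM (y axis, from 0) of 10 members in each WT library (grey) and TfamAKO library (orange), with the mean and SD of each group in black (n = 5). Mrpl48, Mrpl34, Mrps12 and Mrps6 separate the groups, whereas TfamAKO 1 (circle) lies among the WT libraries for Mrpl49, Mrpl38, Mrps25, Mrps21 and Mrps18b.

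In all, 10 members had no overlap between the groups, 1 higher and 9 lower, beside 14.5% of all genes higher and 9.43% lower. The 9 lower ones were Mrpl48, Mrpl34, Mrpl54, Mrpl20, Mrpl19, Mrpl58, Mrpl12, Mrps12 and Mrps27, a pentatricopeptide protein that did not pass the test (-0.15 ± 0.07, adjusted p 0.106, named after its values were seen).

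TfamAKO 1 stood nearer to WT than its group. For each of the 21 called members, a library was placed on the WT or the TfamAKO side of the midpoint between the group means. These members were called on the same libraries, so most libraries lie on their own side by that choice. The same count over all called genes was not made, so the position of a library is not shown to be particular to the members. TfamAKO 1 lay on the WT side for 14 of the 21, the other TfamAKO libraries for 1 or 2 each, and the WT libraries lay on the TfamAKO side for 0 to 3. The same library had the highest summed neuron markers of its group (7640 CPM, against 6219 to 7240 CPM in the other 4) and the lowest summed microglia markers (778 CPM, against 836 to 1001 CPM), which in both put it nearest to WT. Its summed astrocyte markers went the other way, being the highest of the group and farthest from the WT mean of 4778 CPM (7184 CPM, against 4632 to 6027 CPM). The part of these in its member values was not tested. Without TfamAKO 1, 25 members were called (32.1%), 20 of them shared with the full set of libraries, while calls over all genes rose as well, from 37.4% to 43.0%. In that fit Mrpl49 fell by 0.54 ± 0.08 rather than 0.41 ± 0.12.

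**Figure D3:**
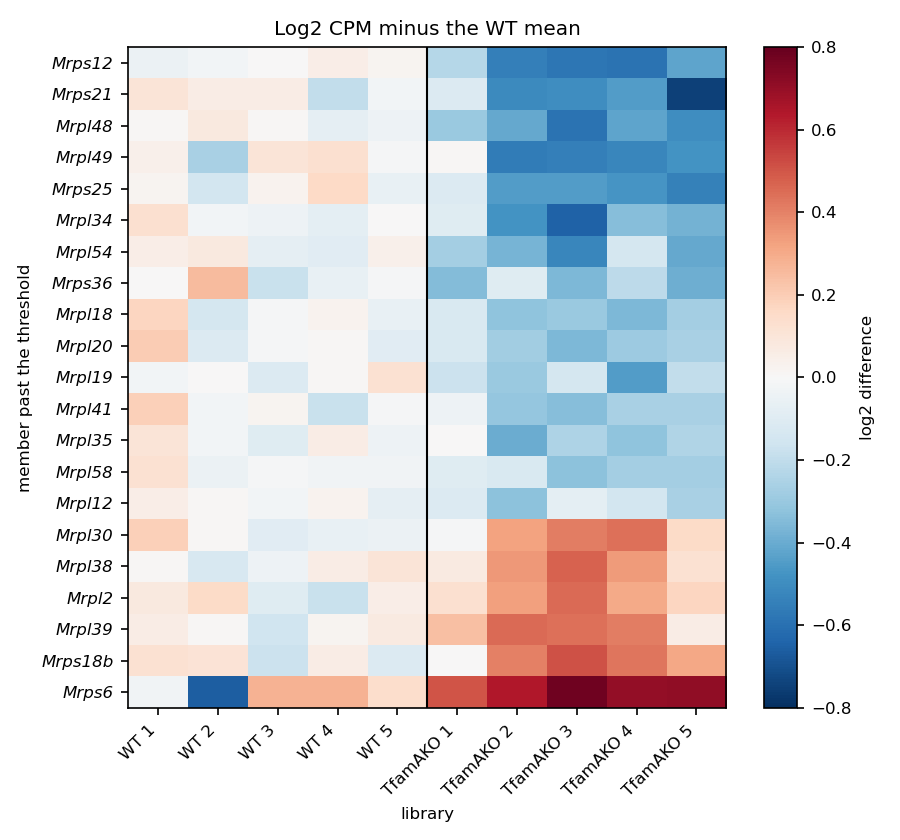
Log2 CPM minus the WT mean (colour) for the 21 called members (y axis) in each of the 10 libraries (x axis), ordered from the strongest fall to the strongest rise. The column of TfamAKO 1 is paler than those of TfamAKO 2 to 5, with 14 of 21 members on the WT side of the midpoint.

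Fewer calls were made when the libraries that stood apart were left out, among the members and among all genes. Without TfamAKO 4 and 5, which carried the Y-linked transcript, 11 members were called, 10 of them shared with the main result, beside 4931 of all genes (30.2%). Without WT 3, 4 and 5, which carried choroid plexus transcripts, 2 members were called beside 2752 of all genes (16.5%), with 2 WT mice left. Those 2 were Mrpl48 (-0.47 ± 0.09, adjusted p 0.0126) and Mrps6 (1.02 ± 0.17, adjusted p 0.00547). Mrps12 and Mrps21 then had log2 fold changes of -0.41 ± 0.13 (adjusted p 0.0547) and -0.51 ± 0.15 (adjusted p 0.0543). Leaving out only TfamAKO 2, 3 or 4 left 13, 12 and 13 members called, beside 29.3%, 29.9% and 30.7% of all genes. Whether the choroid plexus or Y-linked transcripts bear on the calls was not tested.

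For 11 of the 21 called members the call was lost when 1 library was left out. Mrpl20 lost it without TfamAKO 3, Mrpl38 without TfamAKO 2 or 3, and Mrpl58 without WT 1, TfamAKO 3 or TfamAKO 4. Mrpl19 lost it without WT 2, WT 5, TfamAKO 2 or TfamAKO 4, and Mrpl2 without WT 3, WT 4, TfamAKO 2 or TfamAKO 3. Mrps18b lost it without WT 3 or 5 or any of TfamAKO 2 to 4, and Mrpl30 without any of WT 3 to 5 or TfamAKO 2 to 4. The call of Mrpl12 was lost for 7 of the 10 libraries (all but WT 5, TfamAKO 1 and TfamAKO 3), and that of Mrpl41 for 8 (all but WT 4 and TfamAKO 1). Mrps36 likewise lost it for 8 (all but WT 3 and TfamAKO 2), and Mrpl35 for 9 (all but TfamAKO 1). The other 10 called members passed without any single library. They were Mrpl48, Mrpl34, Mrpl18, Mrpl54, Mrpl49 and Mrpl39 of the large subunit and Mrps12, Mrps25, Mrps21 and Mrps6 of the small. On the deposited normalized values (log2 of the value + 1) the calls of Mrpl39 (0.26, adjusted p 0.113), Mrpl38 (0.23, adjusted p 0.0910), Mrpl19 (-0.23, adjusted p 0.216) and Mrps18b (0.34, adjusted p 0.0548) were lost as well. Mrpl30 lost its call under upper-quartile scaling, and Mrpl38, Mrpl2 and Mrpl35 lost theirs with trends over length and GC content removed.

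Compared per length, the members differed more from each other than between genotypes. Scaled to the length of the principal GENCODE M21 transcript, large subunit genes ran from 3.68 CPM per kb for Mrpl1 to 37.5 for Mrpl41 (10.2-fold), and small subunit genes from 3.52 for Mrps35 to 50.2 for Mrps34 (14.3-fold). The median was 16.4 CPM per kb for the Mrpl genes and 16.2 for the Mrps genes. At the low end of the large subunit, Mrpl1, Mrpl17 and Mrpl47 were at 3.68, 3.83 and 4.05 CPM per kb. At its high end Mrpl20, Mrpl30 and Mrpl41 were at 36.1, 37.4 and 37.5. In the small subunit Mrps35, Mrps25 and Mrps16 were at 3.52, 4.20 and 6.33 CPM per kb, and Mrps18a, Mrps21 and Mrps34 at 35.4, 40.4 and 50.2. These lengths come from 1 transcript a gene, so a level per length depends on that choice. Across the 78 members Spearman's rho of the log2 fold change was 0.03 with transcript length and 0.04 with GC content, given as descriptions over genes that share the same libraries.

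Where the genes lie was examined because mitoribosomal genes often start close to a gene on the other strand. In GENCODE M21, 33 of the 78 members (42.3%) had a protein-coding gene starting on the other strand within 1000 bases, against 14.6% of the 14407 matched protein-coding genes tested. Starts on either side were counted, so these partner genes are not all back to back with the member. Some overlap it, as Mtbp overlaps Mrpl13 and Ndufs6 overlaps Mrpl36. Outside the members themselves, 28 such partners were tested, and 9 moved in the same direction as the member by sign. Across these 28 pairs Pearson's r of the log2 fold changes was -0.15 and Spearman's rho -0.39, a description of pairs that share the same libraries. Of 9 called members with a tested partner, 0 partners were called in the same direction, 1 in the other direction and 8 in neither. These 9 pairs are too few to tell whether called members and their partners move together. Among all 28 partners 2 rose and 4 fell, beside 20.8% and 16.6% of all genes.

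Mrpl49, a mitochondria-specific large subunit protein, was the member whose partner was called the other way. It was at 31.6, 25.7, 33.1, 33.6 and 30.5 CPM in WT and 31.1, 20.9, 20.9, 21.4 and 22.0 CPM in TfamAKO, a fall of 0.41 ± 0.12 on the log2 scale (adjusted p 0.0184). TfamAKO 1 was at the WT level, and the other 4 TfamAKO libraries lay below every WT library. Fau, whose start lies 59 bases away in GENCODE M21 (RefSeq leaves 191 bases between the starts, the stretch printed above), encodes a cytosolic ribosomal protein fused to a ubiquitin-like protein. It rose by 0.26 ± 0.08 (adjusted p 0.0181), from 131 ± 9.01 CPM in WT to a mean of 157 CPM in TfamAKO. Mrps12 starts 172 bases from Sars2, the mitochondrial seryl-tRNA synthetase gene, in GENCODE M21. The log2 fold change of Sars2 was 0.07 ± 0.12 (adjusted p 0.683) beside -0.47 for Mrps12, with the printed CCAAT boxes between their RefSeq starts. Mrpl48 starts 891 bases from the start of Rab6a, a Golgi GTPase gene (0.09 ± 0.06, adjusted p 0.271). Mrpl43 starts 779 bases from the start of Twnk, the mtDNA helicase gene, and neither changed past the threshold (-0.02 and 0.03). Rab6a and Twnk overlap these members on the other strand. Partners were named after their values were seen. Overlap with a protein-coding gene on the other strand was annotated for 23 members, and the library kit was stranded per the labels, but any use of strand in the counting was not given in the sources used here. Besides Mrps6, the members Mrpl53, Mrps24 and Mrps34 overlap a protein-coding gene on their own strand, and their values are uncertain for the same reason.

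**Figure D4:**
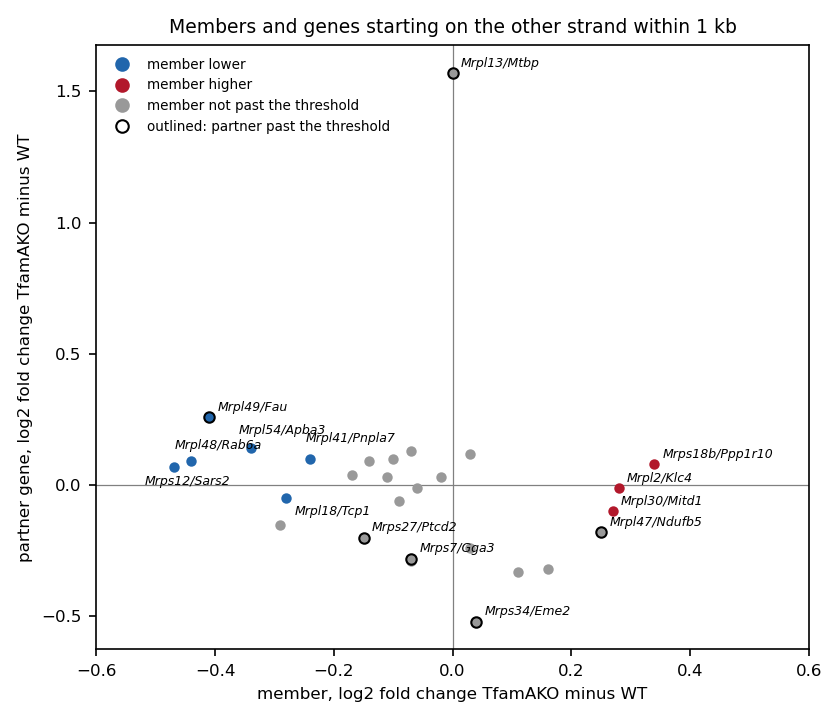
Log2 fold change of a member (x axis) and of the gene that starts on the other strand within 1000 bases (y axis) for 28 pairs, coloured by the member's call and outlined where the partner was called. Called members lie away from 0 on the x axis because they were picked by their change, which the partners were not. Of the partners of called members only Fau, beside Mrpl49, was called.

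Short motifs were counted on both strands in the 250 bases before each RefSeq start, in 75 windows of 69 members and in 15199 windows of tested genes. NRF1 and ETS-family factors such as GABP are known regulators of nuclear genes for mitochondrial proteins. The ETS letters CCGGAAG stood in 24% of member windows, against 11.7% of all windows. For NRF1, GCGCA, any base and GCGC in a row stood in 13.3% against 7.09%, with 9 of 48 Mrpl windows (18.8%) and 1 of 27 Mrps windows. CCAAT stood in 37.3% against 34.9%, TATAAA in 6.67% against 6.73%, and the YY1 letters AAGATGGCG in 2.67% against 1.01%. The ETS, NRF1 and YY1 letters each contain CG. Member windows held a median of 17 CG pairs, against 14 in all windows, at a median GC content of 58.4% against 59.6%. The part of this in the shares was not tested. The composite letters TGATGNAA, of the kind bound by ATF4 with a C/EBP partner, stood in 0 of 75 member windows and in 2.07% of all windows. By call, the ETS letters stood in 4 of 16 windows of members that fell, 0 of 7 of those that rose and 14 of 52 of the rest. NRF1 letters stood in 2, 2 and 6 of the same windows. These are counts of windows and not of members, since a member with several starts gave several windows. Mrpl48 did so among the members that fell and Mrpl2 among those that rose. The window of a member can overlap a partner gene or its window, and a match says only that the letters are there.

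Among the proteins of the mitochondrial ribosome that carry other symbols, changes were under 0.5, as they were among the members except Mrps6. Of 5 such genes 0 rose and 1 fell (20.0%), beside 20.8% and 16.6% of all genes. Gadd45gip1, which lies at the peptide exit region of the large subunit, was at 33.6, 29.4, 31.4, 33.2 and 31.2 CPM in WT and 24.7, 26.4, 25.4, 24.7 and 25.7 CPM in TfamAKO. It fell by 0.32 ± 0.06 on the log2 scale (adjusted p 0.00163), with no overlap, and without WT 3, 4 and 5 its adjusted p was 0.0712. Of the small subunit proteins, Dap3, a GTP-binding protein (0.03 ± 0.06, adjusted p 0.661), Ptcd3 (-0.18 ± 0.09, adjusted p 0.138), Aurkaip1 (0.13 ± 0.06, adjusted p 0.108) and Chchd1 (0.25 ± 0.10, adjusted p 0.0596) did not pass.

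Of 27 listed factors that build the mitochondrial ribosome 6 rose and 2 fell. These shares were 22.2% and 7.41%, beside 20.8% and 16.6% of all genes. Their median log2 fold change was 0.01, and 11.1% changed by more than 0.5, beside 25.8% of all genes. Mpv17l2, an inner membrane protein that binds the large subunit, was at 13.3, 14.9, 14.1, 13.6 and 13.2 CPM in WT and 18.6, 30.1, 30.3, 30.4 and 21.6 CPM in TfamAKO, a rise of 0.92 ± 0.14 (adjusted p 0.000360). Mettl15, a methyltransferase of the small subunit rRNA, rose by 0.89 ± 0.15 (adjusted p 0.000648), and Rcc1l, a factor of ribosome assembly, by 0.59 ± 0.10 (adjusted p 0.000819). All 3 separated the groups without overlap. Fastkd2, an RNA-binding protein of the large subunit pathway, fell by 0.37 ± 0.10 (adjusted p 0.0141), a call lost on the deposited normalized values (-0.29, adjusted p 0.349) and without WT 3, 4 and 5 (adjusted p 0.160). Of 17 tested translation factors 1 rose (5.88%) and 0 fell, beside 20.8% and 16.6% of all genes. It was Oxa1l, the insertase that receives new chains from the ribosome (0.18 ± 0.06, adjusted p 0.0266). Its call was lost on the deposited normalized values (0.10, adjusted p 0.265), under upper-quartile scaling, and without WT 1, WT 3 or TfamAKO 2 alone (adjusted p 0.0592, 0.0658 and 0.0684). The ribosome recycling factor Mrrf (-0.30 ± 0.11, adjusted p 0.0560), the elongation factor Guf1 (0.31 ± 0.13, adjusted p 0.0859) and the peptide deformylase Pdf (-0.25 ± 0.11, adjusted p 0.0863) did not pass.

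The mRNAs that these ribosomes translate fell more than the members. Of the 13 mRNAs encoded by mtDNA 11 fell (84.6%) and 0 rose, beside 16.6% and 20.8% of all genes. Their median log2 fold change was -0.48, and their share of all counts was 5.85% ± 0.693 in WT and 4.41% ± 0.297 in TfamAKO (SD, n = 5). Examples were mt-Nd2 of complex I (-0.78 ± 0.10, adjusted p 0.000153) and mt-Co3 of cytochrome oxidase (-0.55 ± 0.10, adjusted p 0.000930). Among 36 nuclear genes for complex I subunits 0 rose and 10 fell (27.8%), beside 20.8% and 16.6% of all genes, with a median of -0.12. The strongest of these, Ndufb2, fell by 0.76 ± 0.09 (adjusted p 6.78e-05). Cytosolic ribosomal proteins went the other way from the members by median. Of 75 genes 29 rose (38.7%) and 1 fell (1.33%), beside 20.8% and 16.6% of all genes, with a median of 0.17. Their summed level was 11662 ± 515 CPM in WT and 13172 ± 1155 CPM in TfamAKO (SD, n = 5), 13.0% higher. TfamAKO 1 (11579.9 CPM) lay inside the WT range of this sum. Rpl22 rose by 0.56 ± 0.10 (adjusted p 0.000895), and Rpl5 fell by 0.41 ± 0.08 (adjusted p 0.00192). The differences between these lists and the members were not tested.

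**Figure D5:**
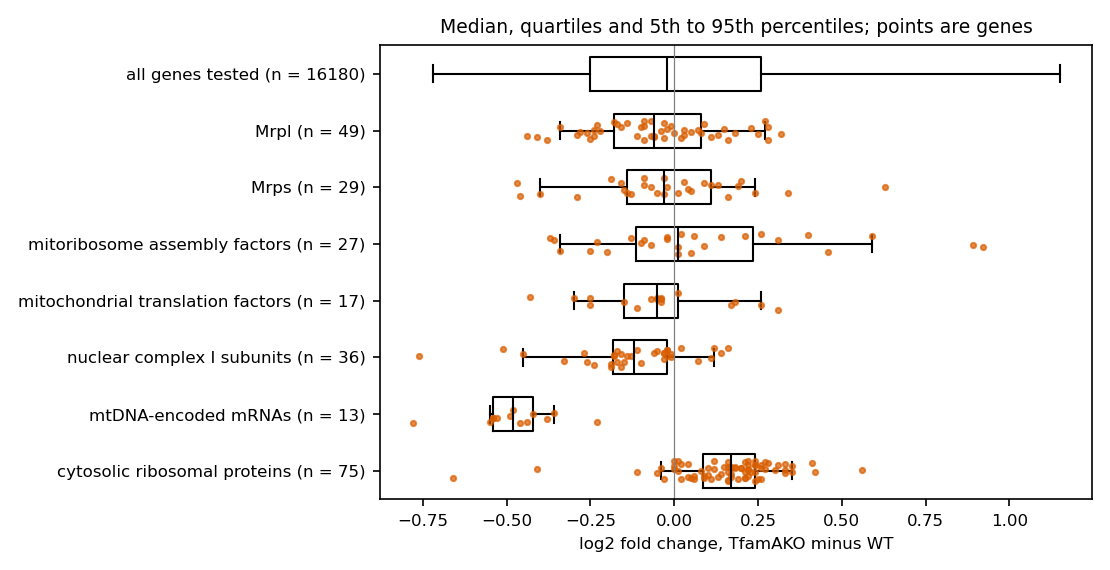
Log2 fold change (TfamAKO minus WT, x axis) by gene list, as median, quartiles and 5th to 95th percentiles, with genes as points except for all genes tested. The Mrpl and Mrps boxes lie around 0 (medians -0.06 and -0.03) between the mtDNA-encoded mRNAs (-0.48) and the cytosolic ribosomal proteins (0.17).

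For 2 members the deposited normalized table and the counts went apart. The normalized value divided by the count was compared between groups, and its log2 difference lay between -0.15 (5th percentile) and 0.17 (95th percentile) over genes tested. It was 0.51 for Mrps35 and 0.40 for Mrpl35. Mrps35, a mitochondria-specific small subunit protein, had a log2 fold change of -0.05 ± 0.08 on counts (adjusted p 0.657). On the log2(value + 1) scale of the normalized table, limma gave 0.45 ± 0.11 (adjusted p 0.00960). Its normalized values were 265, 264, 355, 260.2 and 275 in WT and 382, 353, 435, 397 and 359 in TfamAKO. Mrpl35 fell on counts (-0.24 ± 0.09, adjusted p 0.0455) and had 0.15 ± 0.19 on the normalized scale (adjusted p 0.582). The authors' normalization method was not given in the sources used here, and for these 2 genes the direction depends on the table.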

How the data were processed

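RNA-seq libraries of 10 hippocampi (5 WT and 5 TfamAKO) were analysed from the tables the authors deposited. The first holds unnormalized estimated counts per gene (the deposited values are whole numbers). The second holds normalized values, treated as a signal because the method of the authors was not given in the sources used here. Per the submitters' processing notes the tools were Salmon, with no version, and DESeq2 1.26.0. The genome build of the counts was not given in the sources used here. Total counts ran from 16584245 to 28675367 per library, and the log2 CPM of replicates correlated with a Pearson's r from 0.970 to 0.991.

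Counts were tested with edgeR 4.0.16 in R 4.3.3: filterByExpr with a minimum count of 10 (16180 of 20156 rows kept), TMM scaling, the two-sided quasi-likelihood F test of genotype, with no other term, and Benjamini-Hochberg adjustment at 0.05. Log2 fold changes are TfamAKO minus WT. Their SE is the size of the change over the root of F. CPM are counts scaled to the effective library size. Normalized values were tested with limma 3.58.1 on log2(value + 1). The steps were tested on simulated counts. Transcript lengths came from GENCODE M21 (all 78 members matched) and upstream sequences from RefSeq on GRCm38.p6.

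The members, gene lists, tests and alternatives were chosen with earlier results of these data known. Genes were named by rule: Tfam; up to 8 called members of each subunit and direction with the smallest p and an average of at least 1 CPM; the 3 highest and 3 lowest of each subunit per length; 9 members with a special role; the 5 mitoribosomal proteins with other symbols; and up to 4 genes with the smallest p of each companion list. Others are said to be chosen after their values were seen, as were Slc5a3, the genes just outside the threshold and the grouping by bacterial origin. Alternatives were other scaling, filters, DESeq2 1.42.0, limma-voom, the normalized values, a replicate block and leaving out libraries.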

Additional observations from a re-analysis of the deposited data

Results flagged for a closer look

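Each group of 5 libraries was examined for a library whose gap to its nearest neighbour exceeds Dixon's critical value for 5 samples when divided by the group's range. Of 68 groups examined 10 passed, where chance gives about 3.40, or 1 in 20, if the groups were independent. They are not, since they share the same libraries and some are sums over members. A single library can thus be flagged several times, and 10 against 3.40 cannot be read as an excess. TfamAKO 1 was high in its group for Mrpl49 (31.1 CPM), Mrps25 (26.9 CPM) and Mrpl41 (30.6 CPM), and in each it lay within the WT range. WT 3, one of the libraries with choroid plexus transcripts, was low for Mrpl39 (17.8 CPM) and high for Mrps35 (16.5 CPM). WT 1 was high for Mrpl58 (36.5 CPM), and TfamAKO 4 was high for Mrps34 (53.2 CPM). The summed Mrpl level was high in WT 1 (1335 CPM) and low in TfamAKO 5 (1143 CPM), and these libraries were also the highest and lowest for the median difference of the Mrpl genes from the WT mean (0.07 and -0.14 on the log2 scale). The Mrpl sum over the Mrps sum was high in WT 5 (1.73).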

How the results depend on the processing

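Members called numbered 20 to 24 under other scaling, filters, DESeq2 and limma-voom, beside 21 in the main result. Mrpl48 and Mrps6 kept their call under all 24 alternatives, and Mrps12, Mrps25, Mrps21, Mrpl34 and Mrpl54 under 23, losing it without WT 3, 4 and 5. The causes of the changes below were not tested, except that leaving out libraries leaves fewer samples.

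On the deposited normalized values (pseudocounts 0.5, 1 and 5) and with the authors' factors as offsets, 2 Mrpl genes rose. Log2 fold changes then reversed for Mrps35 (0.45, 0.45, 0.44 and 0.44), Mrpl35 (0.15, 0.15, 0.14 and 0.16) and Mrps18a (-0.01 in each). Under upper-quartile scaling Mrpl1 was at -0.01 and Mrps18a at -0.02. Without TfamAKO 4 and 5, an alternative added after the data were seen like the next 2, 6 members fell (3 Mrpl) and 5 rose (4 Mrpl and 1 Mrps), and Mrps18a was at -0.01. Without WT 3, 4 and 5, 2752 genes were called, 1 member rose and 1 fell (Mrpl 0 and 1, Mrps 1 and 0), and Mrpl1 (-0.08), Mrps18a (-0.02), Mrpl33 (-0.04) and Mrps35 (0.04) reversed. With length and GC trends removed 7 Mrps genes fell, and Mrps18a (-0.08) and Mrps34 (-0.02) reversed.

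Leaving out 1 library at a time, genes called ranged from 4828 (without TfamAKO 2) to 7094 (without TfamAKO 1). Members that rose ranged from 2 (without TfamAKO 2) to 10 (without TfamAKO 5), and members that fell from 9 (without TfamAKO 4) to 17 (without TfamAKO 1). For Mrpl these ranges were 1 to 7 and 6 to 14, reached without the same libraries, and for Mrps 1 to 3 and 3 to 4. The Mrpl median ran from -0.07 to -0.01 and the Mrps median from -0.06 to 0.00. Mrpl1 ran from -0.03 to 0.07 (-0.00 without TfamAKO 2), Mrps18a from -0.03 to 0.05, and Mrps34 from -0.01 (without TfamAKO 4) to 0.07, so that these 3 changed sign.

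The replicate numbers in the labels do not pair the samples: deviations of same-numbered libraries correlated at -0.14 to 0.07, and no sample correlated best with its own number. With the replicate number as a block 21 members were called, 18 of them shared, and 1 Mrps gene rose.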
